A study of Mus musculus with 6 samples.

Results

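The genes described here are 61 of the 35186 gene symbols counted: those that begin with Stx, Vamp, Snap or Vps followed by a digit, or with Vti1, and Ykt6. They encode most syntaxins, vesicle-associated membrane proteins and SNAP-25 relatives, together called SNAREs, and the vacuolar protein sorting (VPS) proteins. Their transcripts were counted by RNA sequencing of NP-binding memory B cells (NP is a hapten) from C57BL/6J mouse spleen. There were 3 wild-type (WT) libraries and 3 labelled Nix-/-Bnip3-/- (DKO), from about 1000 sorted cells each, and counts are always given in the order of libraries 1, 2 and 3. Nix is the protein of Bnip3l, and both proteins are mitophagy receptors that tag mitochondria for enclosure in autophagosomes. The labels give neither the age of the animals, nor the cells in which the genes were deleted, nor whether each library is a different animal. The p-values therefore reflect differences among these 6 samples that could be technical.

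SNAREs drive membrane fusion: syntaxins and their partners on each of the facing membranes zip into a bundle of helices. An autophagosome fuses with a lysosome when STX17 and SNAP29 on its surface meet VAMP8 on the lysosome, and a further set built on YKT6, SNAP29 and STX7 can do the same. The HOPS tether holds the facing membranes together beforehand, and its relative CORVET does so on early endosomes. Retromer returns receptors from endosomes, ESCRT complexes pinch membrane away from the cytosol and close the autophagosome, and SNAREs of the cell surface carry out secretion. Not every symbol chosen by its name acts there: Vps72 encodes a chromatin protein, Snap91 a clathrin assembly protein, and Vamp7-ps is annotated as a processed pseudogene.

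Libraries held between 312908 and 517057 counts. Values are given as counts and as normalized CPM (counts relative to the scaled library size), in which 1 count was worth 3.86 to 5.25 in WT libraries and 1.84 to 2.26 in DKO-labelled libraries. Bnip3l had 1, 8 and 0 WT counts and 10, 16 and 41 DKO counts, more in the group labelled as lacking it, while Bnip3 had 25, 62 and 6 against 2, 24 and 11. For both genes the groups overlapped once normalized, though those of Bnip3l did not with library totals alone. The labels do not say which exons were deleted, so counts over a whole gene may not check the genotype. All directions therefore refer to the labels alone. Of 12 B cell markers all were counted, but Cd79a, a chain of the B cell receptor complex, had only 3, 0 and 0 counts against 0, 2 and 4. The B cell markers summed to 241, 153 and 130 counts against 211, 255 and 257. Of these, Blnk held 106 in WT library 1 and Pax5 held 59 in WT library 2. Fold changes were positive for 3 of the 7 tested markers and negative for 4. Once normalized, Bank1 was higher in every DKO-labelled library, and Cr2 and Blnk were lower in every one. The summed B cell markers ranged from 591 to 1259 normalized CPM in WT libraries and from 469 to 498 in DKO-labelled libraries. With library totals alone these sums overlapped between groups. The sums of the other marker lists are also in normalized CPM. Of 10 monocyte and macrophage markers 9 were counted, at 104 to 726 against 493 to 854. Of the 6 tested among them, Lyz2 and Itgam had groups that did not overlap, with DKO above, and the other 4 (Csf1r, Spic, Fcgr1 and C1qa) had log2 fold changes below 0, with a median of -0.50 over the 6. Of 9 T cell markers 9 were counted, at 193 to 987 against 151 to 248, and of 9 neutrophil markers 9 were counted, at 220 to 452 against 149 to 1251. Summed stromal and endothelial markers (7 of 7 counted) were at 804 to 2652 against 280 to 421, but with library totals alone these sums overlapped. Among these markers Vwf had 401 counts in WT library 3 and Col1a1 had 107 in WT library 1. Pecam1 lay the other way, with every DKO-labelled library above every WT library, and the other 6 had log2 fold changes below 0. Summed erythroid markers (7 of 7, with Hba-a2 and Hbb-bs at 0) were at 58.0 to 120.1 against 14.7 to 29.1, and plasma cell markers (5 of 6) at 94.0 to 194 against 60.0 to 342. Memory B cell markers (9 of 9) were at 104 to 277 against 243 to 314, and germinal centre markers (6 of 6, with Mef2b at 0) at 110 to 278 against 93.9 to 145. The part of other cell types in the values below was not tested, and fewer cells of a type and less RNA per cell cannot be told apart in such bulk samples.

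None of the members passed the test between groups. Of the 61 members, 43 passed the filter on low counts and were tested, and 0 of them passed edgeR's quasi-likelihood test at an adjusted p of 0.05, where the background was 0.0% of 8895 genes. Their edgeR adjusted p lay between 0.389 and 0.997. At an unadjusted p under 0.05 there were 5 members higher in the DKO-labelled libraries (Stx17, Snap29, Stx16, Vti1b and Snap23), 11.6% of those tested beside 5.49% of all tested genes. Each of these 5 had at most 3 counts in any WT library and passed the filter only through the DKO-labelled libraries, so it had to differ, and nothing is read from that share. Lower at that level were 3 members (Ykt6, Stx18 and Stx2), 6.98% beside 6.59%. These counts of 5 higher and 3 lower depended on single libraries: they were 1 and 0 without DKO library 1, 3 and 0 without DKO library 2, 4 and 0 without DKO library 3, and 6 and 6 without WT library 1. All 3 DKO-labelled libraries lay above all 3 WT libraries for 7 tested members (16.3%, beside 12.8% of all tested genes). They lay below them for 2 members (4.65%, beside 6.39%). The 7 include the 5 higher members named above, which passed the filter only through the DKO-labelled libraries, so nothing is read from that share either. The tally also rests on the scaling. With library totals alone it was 15 members above (34.9%, beside 24.4% of all tested genes) and 1 below (2.33%, beside 2.36%). These 15 include the same 5 members and Vps36, which also passed the filter only through the DKO-labelled libraries. Their gaps with library totals were fixed in advance, so nothing is read from the share above. Unless library totals are named, statements that groups overlap or not refer to TMM-normalized values (TMM is the scaling edgeR uses). Limma-voom called 0 members (background 0.0%). DESeq2 called Stx17 and Stx16 higher (background 2.45%) and Stx18 and Ykt6 lower (background 4.31%). The DESeq2 adjusted p was 0.00497 for Stx17, 0.0414 for Stx16, 0.0145 for Stx18 and 0.0307 for Ykt6. Stx17 and Stx16 passed the filter only through the DKO-labelled libraries, so nothing is read from these 2 calls. The 2 lower calls were 4.65% of the tested members, near the background, and nothing is read from them either. WT library 1 held 71.6% of the summed normalized CPM of Stx18 and 88.8% of that of Ykt6. DESeq2 gave no adjusted p for Vps51, Vps11 and Stx2 (background of such genes 4.58%). With DESeq2 on every gene with a count, Stx17 alone remained among the 61 members (DESeq2 adjusted p = 0.0472; background 0.151% higher and 0.533% lower).

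The members' fold changes lay on both sides of 0. Of the 43 tested, 24 had log2 fold changes (DKO against WT) above 0, 55.8% beside 45.5% of all tested genes, with a median of 0.17 beside -0.17. Scaling by library totals alone moved both medians up together, to 0.88 and 0.62, so that directions of small changes depend on it. In the plot of fold changes by complex, the standard errors run from 0.88 for Vps13a to 2.42 for Vps51 on the log2 scale.

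**Figure D1:**
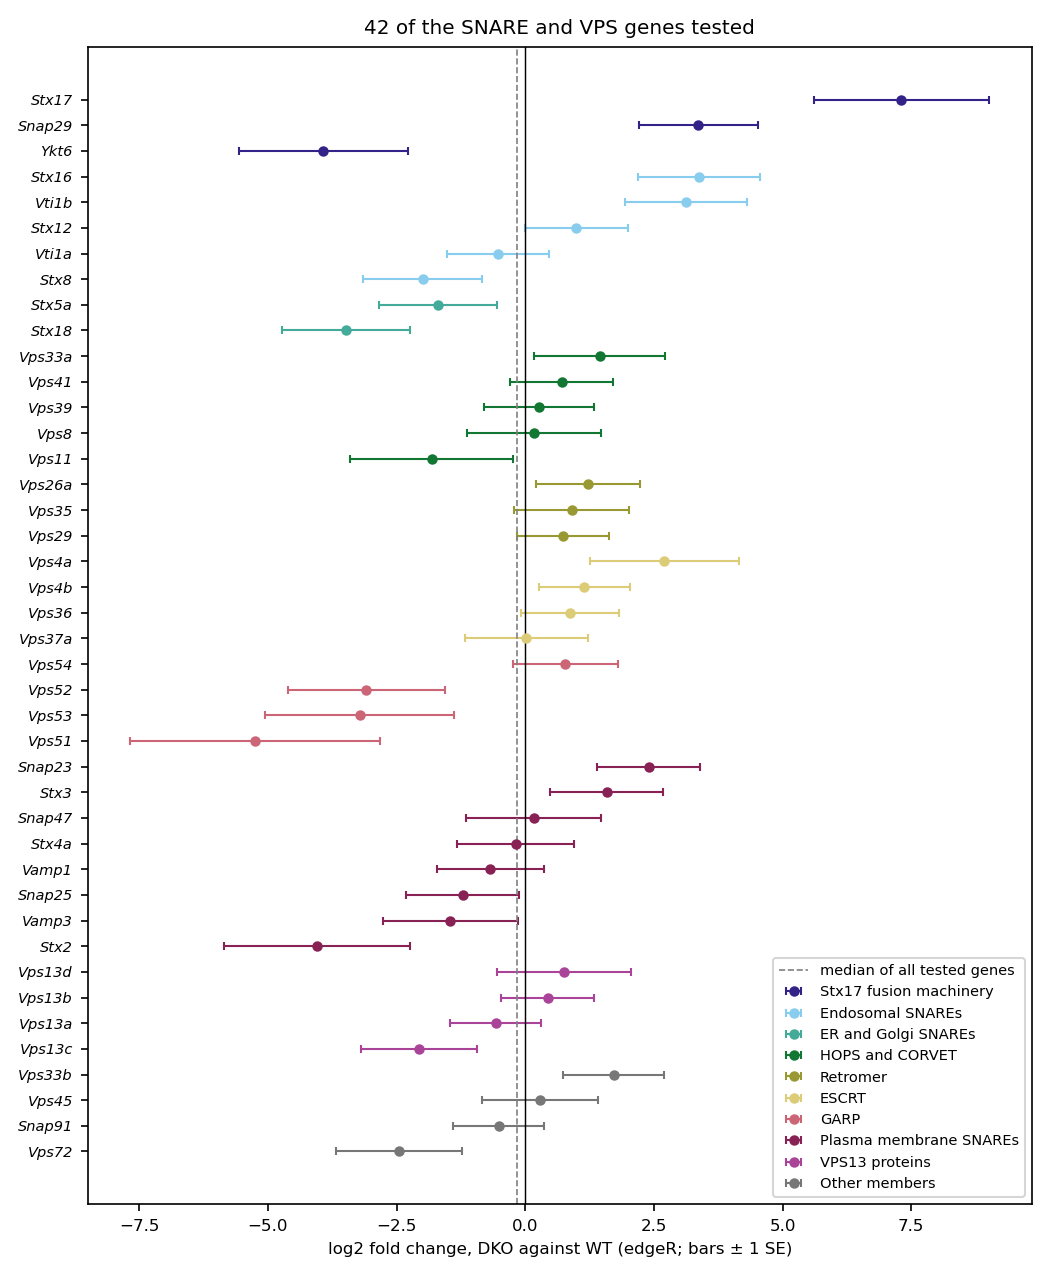
Log2 fold changes (x axis, DKO against WT, edgeR) of 42 of the 43 tested SNARE and VPS genes, 1 row each and coloured by complex, with bars of 1 standard error and a dashed line at the median of all tested genes, -0.17. Stx17 lies farthest to the right at 7.31 and Vps51 farthest to the left at -5.25, and 0 of the genes passed the adjusted threshold.

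The spread between libraries was wide and lay mostly in the WT group. Over the tested members with a count, the median coefficient of variation (SD over mean of normalized CPM, 3 libraries) was 106% in WT libraries (42 genes) and 42.1% in DKO-labelled libraries (43 genes). All tested genes showed the same kind of gap, at 92.6% and 49.7%. For 13 of the 43 tested members (30.2%, beside 29.7% of all tested genes), more than 50% of the summed normalized CPM lay in 1 library, and for 10 of these it was a WT library (23.3%, beside 23.6% of all tested genes), so the members were near the background. Detection differed as well. At an equal depth of 312908 counts, the expected number of members with at least 1 count was 57.0, 46.7 and 46.9 for WT but 54.8, 57.9 and 57.2 for DKO. WT library 1 therefore lay within the range of the DKO-labelled libraries, and WT libraries 2 and 3 lay below it. Over all symbols, by contrast, each of the WT libraries (47.7% to 52.3%) lay below each DKO-labelled library (63.1% to 65.1%).

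**Figure D2:**
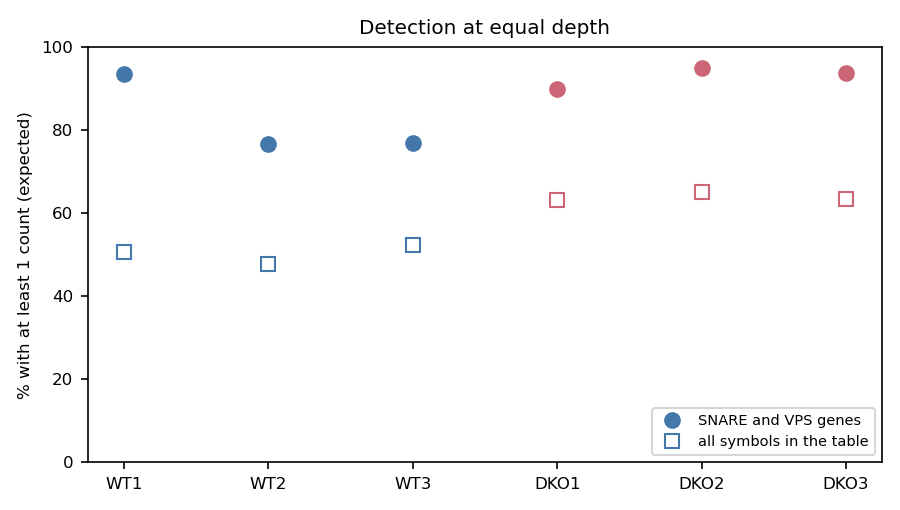
Expected share of symbols with at least 1 count in each library (x axis) after thinning to 312908 counts, in percent, for the 61 SNARE and VPS genes (filled circles) and for all symbols in the table (open squares), WT in blue and DKO in red. Members were detected at 76.5% and 76.8% in WT libraries 2 and 3 and at 89.9% or more in the others.

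**Figure D3:**
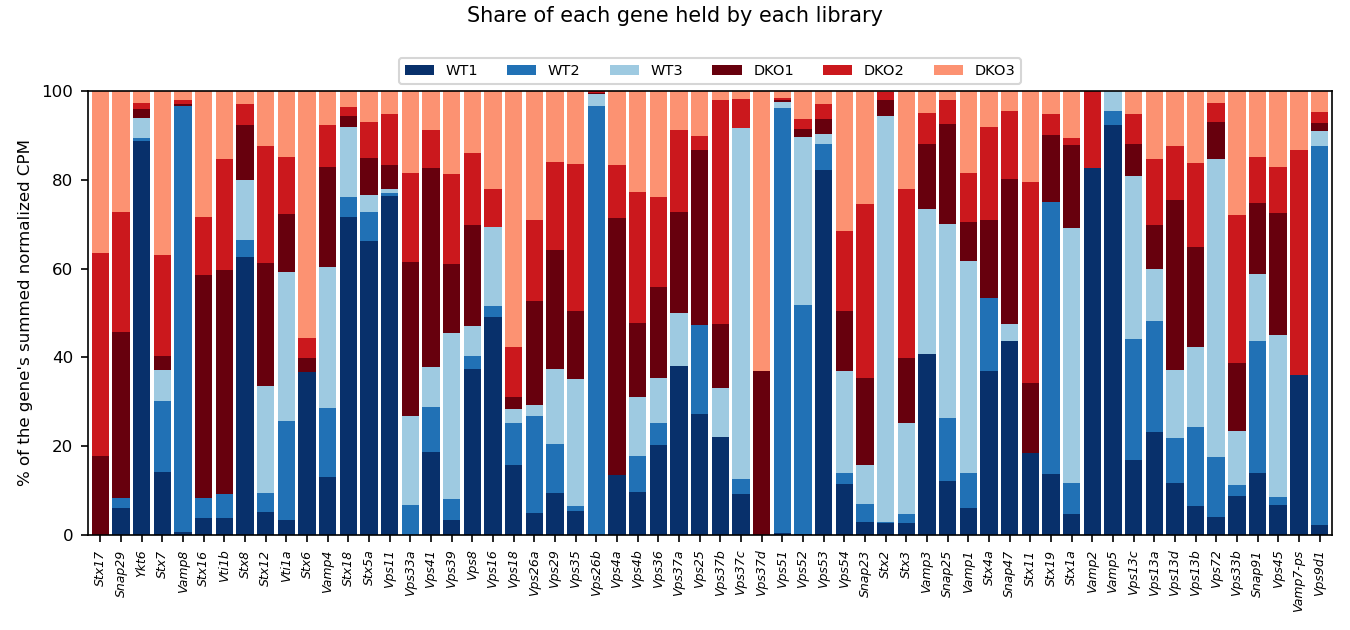
Share of each member's summed normalized CPM (y axis, percent) held by each of the 6 libraries, WT in blues and DKO in reds, for 60 of the 61 members ordered by complex. Vamp8, Vps26b and Vps51 are filled almost wholly by WT library 2, and Stx17 wholly by the DKO-labelled libraries.

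The pair that marks the autophagosome for fusion, Stx17 and Snap29, had almost no counts in the WT libraries. Stx17 (chromosome 4, 48124915 to 48186507, mm10) had 0 counts in each WT library and 13, 41 and 31 DKO counts. The groups did not overlap. This was 54.97 ± 23.4 normalized CPM (SD, n = 3) against none. Set against 3 counts over all WT libraries, a floor of 4.68 normalized CPM, the DKO mean was at least 11.7-fold higher. Snap29 (chromosome 16, 17405986 to 17430827) had 2, 1 and 0 WT counts and 28, 25 and 24 DKO counts. Again no WT library reached any DKO-labelled library, and the latter were close to each other, at 63.3, 46.0 and 46.5 normalized CPM. With 3 counts against 77, the ratio of pooled normalized counts was 10.95, with an exact 95% interval of 3.61 to 54.3 that covers counting error only. Stx17 and Snap29 passed the filter only through the DKO-labelled libraries, so a gap was fixed in advance for both. Fitted log2 fold changes were 7.31 (SE 1.70) for Stx17, which depends on the prior count because the WT group is at 0, and 3.37 (SE 1.15) for Snap29. Leaving out 1 library at a time gave 6.90 to 7.59 for Stx17 and 2.92 to 4.47 for Snap29. Some exonic bases of Snap29 also belong to Pi4ka on the opposite strand, 60 in all, and how the counting treated strand is not given in the sources used here.

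The sequences before the start sites of these 2 genes are shown because both genes were near 0 in the same libraries, beside that of the retromer gene Vps26a, which holds the E-box CACGTG, the core of the site bound by regulators of lysosome and autophagy genes. Capitals mark the E-box, and the sequences are from RefSeq on GRCm38.p6, 5′ to 3′ on the gene's strand, ending before the annotated gene.
Stx17, chr4:48124669-48124914, plus strand: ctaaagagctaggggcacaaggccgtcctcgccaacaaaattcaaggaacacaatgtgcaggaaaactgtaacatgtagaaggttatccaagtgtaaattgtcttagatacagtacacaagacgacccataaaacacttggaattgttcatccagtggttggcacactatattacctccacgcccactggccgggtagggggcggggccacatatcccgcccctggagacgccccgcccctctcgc
Snap29, chr16:17405750-17405985, plus strand: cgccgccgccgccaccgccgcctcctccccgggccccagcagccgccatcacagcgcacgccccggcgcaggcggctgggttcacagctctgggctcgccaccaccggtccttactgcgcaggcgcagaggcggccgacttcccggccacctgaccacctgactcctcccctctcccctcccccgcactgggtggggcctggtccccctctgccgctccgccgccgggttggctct
Vps26a, chr10:62486806-62487055, minus strand: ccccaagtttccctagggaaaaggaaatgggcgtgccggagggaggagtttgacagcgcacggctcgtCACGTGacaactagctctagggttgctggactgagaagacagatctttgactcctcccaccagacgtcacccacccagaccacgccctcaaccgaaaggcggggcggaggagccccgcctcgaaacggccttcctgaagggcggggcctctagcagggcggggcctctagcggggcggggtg
The letters CACGTG, which read the same on both strands, were in the 250 bases before a start of 5 of the 45 members with an entry (Stx6, Vamp4, Vps16, Vps26a and Vps33a), 11.1% beside 6.86% of 27025 gene symbols. For each of these 5 the groups overlapped, but with library totals alone those of Vps26a and Vps33a did not. A match is a description of the letters and not a binding site.

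Vamp8, Ykt6 and Stx7, the other genes of these fusion sets, had uneven counts. Vamp8 had 1, 174 and 0 WT counts and 1, 4 and 7 DKO counts and was not tested. Its counts lay almost wholly in WT library 2. Ykt6, a SNARE held to membranes by lipid anchors, had 285, 3 and 14 counts against 16, 12 and 23. WT library 1 was far above the rest and WT library 2 was lowest, so the groups overlapped. The log2 fold change of Ykt6 was -3.92 (SE 1.65), or -0.22 without WT library 1. Stx7, the late endosomal syntaxin, had 2, 3 and 1 counts against 1, 9 and 14 and was not tested. Summed over these 5 genes, normalized CPM was 1515, 699 and 78.8 for WT and 133, 167 and 192 for DKO. The sum thus followed single genes in WT libraries 1 and 2, namely Ykt6 and Vamp8. Stx17 and Snap29 had a gap that the filter fixed in advance, so they are not set against the others.

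**Figure D4:**
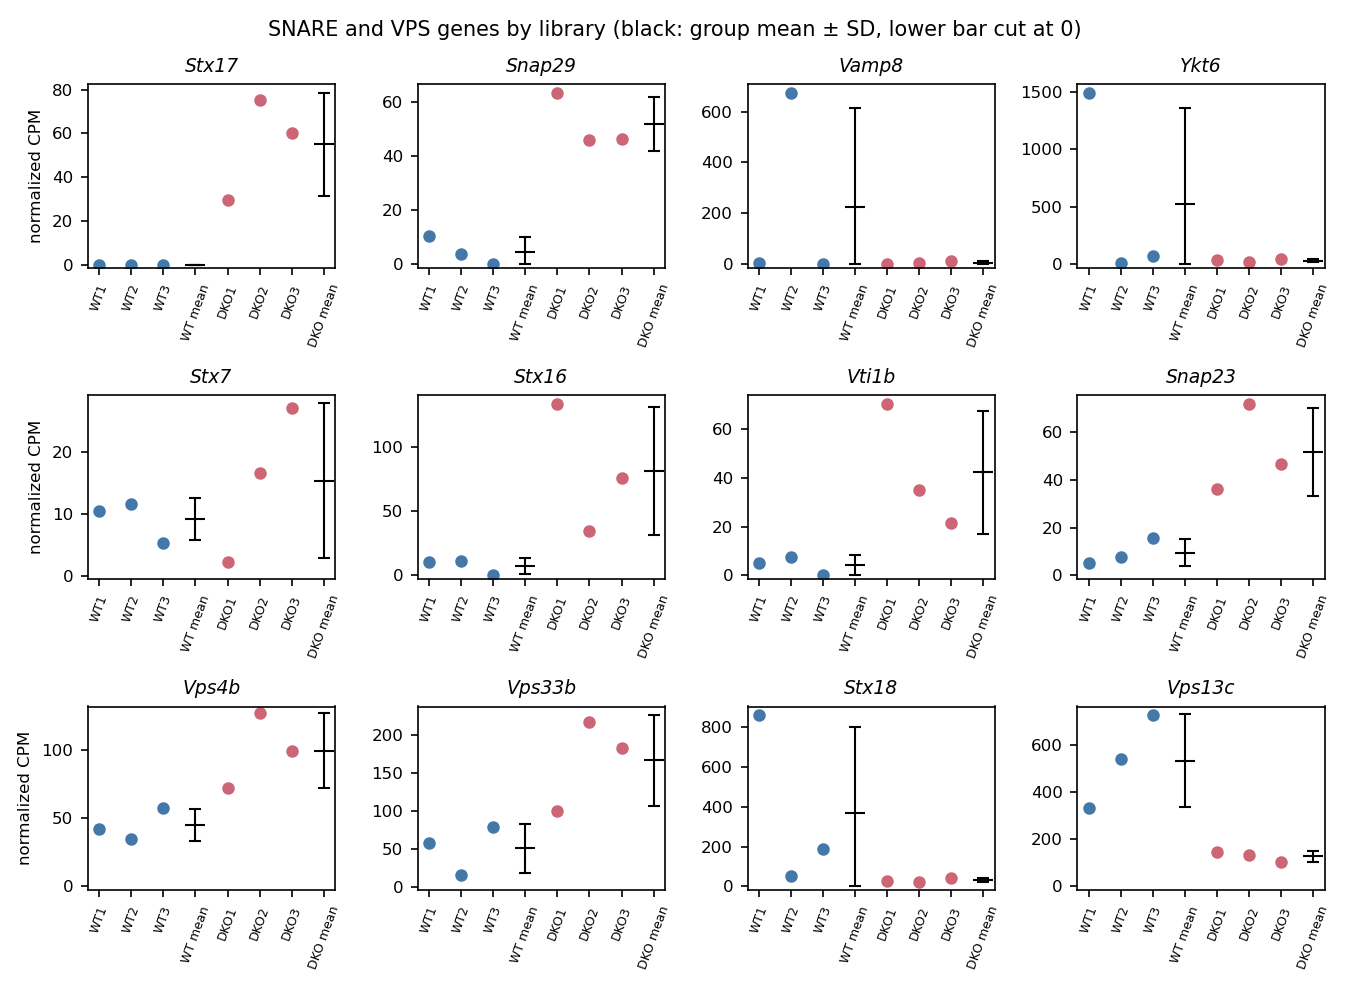
Normalized CPM (y axis, from 0, a separate scale for each gene) of 12 SNARE and VPS genes in each of the 6 libraries, WT in blue and DKO in red, with the group mean ± SD (n = 3) in black. Stx17 is at 0 in all WT libraries and at 29.4 to 75.5 in DKO-labelled libraries, whereas Vamp8 and Ykt6 each have a single high WT library, at 672 and 1489.

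Among the other SNAREs of endosomes, Vti1b and Stx16 showed a gap between groups, and the others did not. Vti1b, a SNARE of late endosomes, had 1, 2 and 0 WT counts and 31, 19 and 11 DKO counts. Every DKO-labelled library lay above every WT library. With 3 counts against 61 the pooled ratio was 8.67 (exact 95% interval 2.83 to 43.2, counting error only), and the log2 fold change was 3.12 (SE 1.18), or 3.88 without WT library 2. In Vti1b 285 exonic bases belong also to Arg2 on the opposite strand. Stx16, a syntaxin of traffic from endosomes to the trans-Golgi network, had 2, 3 and 0 counts against 59, 19 and 39. The groups were apart here too, at 7.35 ± 6.39 against 81.3 ± 49.5 normalized CPM (SD, n = 3), with a log2 fold change of 3.37 (SE 1.18). Vti1b and Stx16 passed the filter only through the DKO-labelled libraries, so a gap was fixed in advance for both. Stx8, which pairs with Stx7 and Vti1b in late endosomal fusion, lay the other way, with 93, 8 and 20 counts against 42, 20 and 12. Its groups overlapped, and its value of -1.996 (SE 1.16) was -0.32 without WT library 1. Stx12, a syntaxin of recycling endosomes, had 6, 7 and 28 counts against 75, 88 and 39. WT library 3 lay within the range of the DKO-labelled libraries, and the log2 fold change of 0.99 (SE 1.00) was 2.28 without it. Vti1a, the trans-Golgi relative of Vti1b, had 1, 9 and 10 counts against 9, 11 and 12. Of the untested members of this group, Stx6 had 20, 0 and 0 against 4, 7 and 82, and Vamp4 had 5, 8 and 12 against 20, 10 and 8. These 3 genes overlapped between groups.

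For each of the HOPS and CORVET subunits the groups overlapped once TMM-normalized, but those of Vps33a did not with library totals alone. HOPS and CORVET share a core of Vps11, Vps16, Vps18 and Vps33a. HOPS adds Vps39 and Vps41, and CORVET adds Vps8. Vps33a, the core subunit that grips SNAREs, had 0, 16 and 35 WT counts and 141, 100 and 87 DKO counts. WT library 3, at 184 normalized CPM, lay within the range of 168 to 319 of the DKO-labelled libraries. The log2 fold change was 1.45 (SE 1.27), or 2.88 without WT library 3. Vps11 had 217, 2 and 3 counts against 35, 92 and 40. WT library 1 was far above all libraries and WT libraries 2 and 3 were below every DKO-labelled library, so the value of -1.82 (SE 1.59) became 3.27 without WT library 1. Vps41 had 23, 17 and 11 counts against 127, 30 and 29, and its value of 0.71 (SE 1.00) became -0.40 without DKO library 1. Vps39 had 5, 10 and 56 against 55, 87 and 76, with 0.27 (SE 1.07), or 2.21 without WT library 3. In both genes the groups overlapped. Vps8 had 182, 19 and 33 counts against 256, 223 and 184, or 399 ± 480 against 449 ± 116 normalized CPM (SD, n = 3). WT library 1 was the highest of all libraries, and the log2 fold change of 0.17 (SE 1.30) was 1.93 without it. The 2 untested core subunits had few counts, with 14, 1 and 5 against 0, 7 and 17 for Vps16 and 5, 4 and 1 against 2, 10 and 49 for Vps18. Per kilobase of exon, the mean levels in the DKO-labelled libraries were 54.2 normalized CPM for Vps8, 46.7 for Vps33a and 22.0 for Vps11. They were 19.8 for Vps41, 16.7 for Vps39, 8.21 for Vps18 and 4.10 for Vps16. In WT libraries the order within the core differed, at 78.1 for Vps11, 17.1 for Vps33a, 9.23 for Vps16 and 3.26 for Vps18. WT library 1 held 76.4% of the summed normalized CPM of Vps11, and DKO library 3 held 57.6% of that of Vps18. The levels of the subunits are therefore not ranked.

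Retromer subunits had low and uneven counts. Retromer is built from Vps35, Vps29 and either Vps26a or Vps26b. Vps26a had 2, 12 and 1 WT counts and 22, 21 and 32 DKO counts, and once normalized WT library 2 overlapped the latter, while with library totals alone the groups were apart. Its log2 fold change was 1.22 (SE 1.02), or 2.66 without WT library 2. Vps29 had 5, 8 and 9 against 33, 30 and 23, with WT library 3 just above DKO library 3 at 47.3 and 44.5 normalized CPM, an overlap that library totals alone did not show. Vps35 had 3, 1 and 16 against 20, 53 and 25. For Vps29 the log2 fold change was 0.74 (SE 0.89) and for Vps35 0.90 (SE 1.11), the latter 2.79 without WT library 3, where the gene stood at 84.0 normalized CPM. All 3 values were also above 0 with the size factors of DESeq2. They were above 0 with library totals too, but these raised the median of all tested genes from -0.17 to 0.62. Staying above 0 with library totals is thus no check. Vps26b, the alternative subunit, had 0, 822 and 17 counts against 4, 7 and 2 and was not tested. With its 822 counts, WT library 2 held 96.5% of the summed normalized CPM of that gene.

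All 4 tested ESCRT genes had log2 fold changes above 0 with TMM scaling, with Vps37a close to 0. Vps4a and Vps4b encode the AAA ATPases that take ESCRT-III filaments apart. Vps4a had 8, 0 and 0 WT counts and 80, 20 and 27 DKO counts. WT library 1, at 41.8 normalized CPM, reached into the range of the DKO-labelled libraries, and the log2 fold change was 2.70 (SE 1.44), or 8.15 without that library, where the WT group is then at 0. Vps4b had 8, 9 and 11 counts against 32, 69 and 51, or 44.8 ± 11.8 against 99.4 ± 27.3 normalized CPM (SD, n = 3). Its groups did not overlap under TMM scaling, and with library totals alone those of Vps4b, Vps4a and Vps36 did not. Vps36 passed the filter only through the DKO-labelled libraries, so its gap with library totals was fixed in advance. Nothing is read from the direction of Vps36. Vps4b had a log2 fold change of 1.15 (SE 0.89). Vps36 of ESCRT-II had 6, 2 and 3 against 14, 17 and 19, with a log2 fold change of 0.87 (SE 0.95), between 0.53 and 1.57 with 1 library left out. Vps37a of ESCRT-I had 16, 0 and 5 against 22, 22 and 10, with 0.02 (SE 1.19), a value that was -0.11 with the size factors of DESeq2 and 1.60 without WT library 1. Both overlapped between groups after TMM scaling. The others were not tested: Vps25 had 3, 3 and 0 against 10, 1 and 3, Vps37b 4, 0 and 2 against 6, 26 and 1, Vps37c 4, 2 and 34 against 0, 8 and 2, and Vps37d 3 counts in all. Of the exonic bases of Vps25, 1103 belong also to Ramp2 on the same strand.

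The GARP genes held the highest single counts. GARP tethers vesicles from endosomes at the trans-Golgi network and consists of Vps51, Vps52, Vps53 and Vps54. Vps51 had 6, 2161 and 21 WT counts and 21, 15 and 76 DKO counts. Vps53 had 1008, 100 and 27 against 97, 119 and 94. Vps52 had 1, 235 and 127 against 14, 23 and 57. Each of these was highest in a single WT library, number 2 for Vps51 and Vps52 and number 1 for Vps53, and all 3 overlapped between groups. Log2 fold changes were -5.25 (SE 2.42) for Vps51, or 0.10 without WT library 2, -3.22 (SE 1.84) for Vps53, or -0.29 without WT library 1, and -3.09 (SE 1.53) for Vps52, or -2.41 without WT library 2. Vps54 had 7, 2 and 14 counts against 19, 31 and 52, and its value was 0.78 (SE 1.02), or 1.68 without WT library 3. Subunits of this complex were thus highest in different libraries.

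Of the SNAREs of the cell surface, Snap23 differed most evenly. Snap23 is the widely expressed relative of the neuronal Snap25 and takes part in secretion. It had 1, 2 and 3 WT counts and 16, 39 and 24 DKO counts. The groups did not overlap, at 9.57 ± 5.50 against 51.5 ± 18.3 normalized CPM (SD, n = 3), with a log2 fold change of 2.40 (SE 1.00) and a range of 2.19 to 2.98 with 1 library left out. Snap23 also passed the filter only through the DKO-labelled libraries, so its gap was fixed in advance. Stx3, a syntaxin of secretion at the cell surface, had 2, 2 and 15 counts against 25, 80 and 44, and WT library 3 overlapped the other group under TMM scaling but not with library totals alone (1.58, SE 1.10, or 3.44 without WT library 3). Stx2 had 7, 1 and 232 against 21, 13 and 2, and its value of -4.05 (SE 1.80) turned to 0.41 without WT library 3. Of the other tested members, Vamp3 had 39, 0 and 31 against 32, 19 and 13, Snap25 7, 11 and 25 against 30, 9 and 3, and Vamp1 9, 16 and 71 against 31, 46 and 75. Stx4a had 10, 6 and 0 against 11, 16 and 6, and Snap47 had 11, 0 and 1 against 19, 11 and 3. These 5 overlapped between groups. Vamp5 had 21, 1 and 1 counts against 0 in each DKO-labelled library. Taking 3 counts over the DKO group as the floor, its mean was at least 19.8-fold lower there. It was not tested, and without WT library 1 its 2 counts are under the floor. Stx11, Stx19, Stx1a and Vamp2 had at most 12 counts in any library and were not tested. The median over the 9 tested genes was -0.68, or 0.07 with library totals alone.

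The remaining members included a gene that was lower in all 3 DKO-labelled libraries. Vps13c encodes a bridge protein that passes lipids between organelles. It had 64, 140 and 139 WT counts and 65, 72 and 53 DKO counts, or 535 ± 198 against 127 ± 22.6 normalized CPM (SD, n = 3). The groups did not overlap, also with library totals alone, and the log2 fold change was -2.07 (SE 1.13), between -2.25 and -1.71 with 1 library left out. Its relatives overlapped between groups after TMM scaling, but with library totals alone Vps13d and Vps13b lay higher in every DKO-labelled library. Vps13d, with 78, 93 and 102 against 591, 232 and 222 counts, had 0.75 (SE 1.30), or 0.14 without DKO library 1. Vps13b had 9, 34 and 25 against 73, 75 and 61 (0.44, SE 0.90), and Vps13a 28, 41 and 14 against 28, 51 and 50 (-0.57, SE 0.88, or 0.22 with library totals alone). Stx18, a syntaxin of the endoplasmic reticulum, had 165, 14 and 36 counts against 13, 13 and 23. Normalized groups did not overlap, but with library totals alone they did, and the value of -3.48 (SE 1.25) was -1.81 without WT library 1. Stx5a, the syntaxin of the Golgi, had 52, 7 and 3 against 15, 18 and 15, and its value of -1.69 (SE 1.15) turned to 0.63 without WT library 1. Vps33b, a relative of Vps33a outside HOPS, had 11, 4 and 15 counts against 44, 118 and 94. All DKO-labelled libraries were above the WT libraries, at 166 ± 60.4 against 50.6 ± 32.2 normalized CPM (SD, n = 3), and the log2 fold change was 1.72 (SE 0.98). Vps45, a regulator of endosomal syntaxins, had 9, 3 and 48 against 83, 39 and 61 (0.29, SE 1.12, or 2.18 without WT library 3). Vps72 had 9, 41 and 150 against 43, 28 and 16 (-2.46, SE 1.22, or -0.71 without WT library 3), and Snap91 12, 35 and 13 against 32, 25 and 35 (-0.52, SE 0.89, or 0.28 with library totals alone). These 3 overlapped between groups. Vps9d1, with 2, 106 and 3 counts against 4, 6 and 12, and Vamp7-ps, with 6 counts in all, were not tested.

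Genes that work with these members but carry other names gave 0 edgeR calls. DESeq2 called Stxbp5 lower (DESeq2 adjusted p = 0.0323) and Epg5 lower (DESeq2 adjusted p = 0.0335). These were 2 of the 33 tested, where DESeq2 called 4.31% of all 8895 tested genes lower, so nothing is read from that count. Epg5, an autophagosome tether outside the rule for naming, was named after its value was seen, and neither call held with DESeq2 on every gene with a count (DESeq2 adjusted p of 0.0900 for Stxbp5 and 0.0874 for Epg5). Of 71 such genes listed, 63 were counted and 33 tested, and 0 passed the edgeR adjusted threshold. Fold changes lay above 0 for 14 and below 0 for 19, with a median of -0.10. Among tethers and small GTPases, Ccz1, a subunit of the activator of Rab7, had 9, 2 and 4 WT counts and 185, 36 and 43 DKO counts (2.91, SE 1.16, or 1.72 without DKO library 1). Rab5c, a GTPase of early endosomes, had 7, 12 and 4 against 46, 36 and 212 (2.46, SE 1.06, or 1.37 without DKO library 3). In both the groups did not overlap. Of the ESCRT partners, Pdcd6ip, known as ALIX, had 2, 11 and 4 against 44, 17 and 54 (1.64, SE 1.00, or 2.33 without WT library 2) and the ubiquitin-binding adaptor Stam2 had 0, 12 and 6 against 26, 49 and 47 (1.59, SE 1.13, or 2.36 without WT library 2). Stam2 groups were apart and those of Pdcd6ip overlapped, though not with library totals alone. Of the sorting nexins that work with retromer, Snx5 had 11, 4 and 2 against 46, 22 and 77 (1.81, SE 1.04, or 2.94 without WT library 1). Snx6, its close relative, had 58, 4 and 4 against 9, 13 and 14, and its value of -2.23 (SE 1.21) turned to 0.46 without WT library 1. Of the SNARE regulators, Stxbp5 had 416, 194 and 20 counts against 71, 22 and 23 (-3.62, SE 1.59, or -2.32 without WT library 1), and the SNARE-related gene Sec22c 11, 2 and 56 against 12, 4 and 7 (-2.88, SE 1.27, or -0.93 without WT library 3). The groups of these 4 genes overlapped, except those of Snx5 with library totals alone.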

How the data were processed

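Memory B cells were profiled by RNA sequencing in 3 WT and 3 DKO libraries. The values the authors deposited are whole-number read counts for each gene symbol, without normalization. Named in the submitters' processing notes are the build mm10 and, as tools, STAR, CASAVA, R 3.6.3 and edgeR. What each did, how reads were assigned to genes and whether strand was used is not stated in the sources here. Exons of 20 of the 61 members overlap another gene in GENCODE mouse release 21, whose mm10 positions and exonic lengths were matched by symbol.

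In edgeR 4.0.16 under R 4.3.3, genes were kept by filterByExpr (minimum count 10), scaled by TMM and compared by robust quasi-likelihood F tests on all 6 libraries, without covariates, with p adjusted by the Benjamini-Hochberg method over 8895 genes. Standard errors are the log2 fold change over the square root of F. Normalized CPM divide by the library size of tested genes times its TMM factor. Detection at equal depth is the expected value at the smallest total. The scripts were tested on simulated counts. Of the value columns 0 were left unmatched.

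Fold changes are named for every tested member of the Stx17 machinery, HOPS and CORVET, and retromer, for the 4 members with the smallest p of each other group, for 2 genes of each partner list, and for Bnip3l and Bnip3, whose fold changes are in the closing section. The values of 1 tested member that the rule names are not reported here, though counts and medians over the members include it. The members, lists and tests were chosen with earlier results of these data known. Promoters are from RefSeq (GRCm38.p6). Alternatives were library totals alone, DESeq2 size factors, no filter, mean CPM 10 as the minimum, the DESeq2 1.42.0 test, voom of limma 3.58.1, the replicate number as a block, and each replicate left out. DESeq2 on all genes with a count was added after the data were seen.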

Additional observations from a re-analysis of the deposited data

How the results depend on the processing

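The absence of edgeR calls among the members held with library totals alone, DESeq2 size factors, no filter, a mean CPM of at least 10, limma-voom and each replicate left out. DESeq2 called 2 members higher and 2 lower, and DESeq2 on all genes with a count called 1 higher. Over all genes, calls went from 0 to 22 higher and 108 lower with no filter, 218 and 383 with DESeq2, and 47 and 166 with DESeq2 on all genes. At an unadjusted p under 0.05, with 5 members higher and 3 lower, leaving out 1 library gave 1 to 6 higher and 0 to 6 lower. Whether the replicate numbers pair the libraries is not given by the labels. Across genes, deviations from the group means of same-numbered libraries correlated at 0.02, 0.03 and 0.04, each the highest for its number. Those of differently numbered libraries correlated at -0.024 to -0.004. Correlations this small cannot decide whether the libraries were paired. With the replicate block 0 members were called, with 4 higher and 0 lower at an unadjusted p under 0.05, beside 7 and 1 with library totals alone, 4 and 5 with a mean CPM of at least 10, and 5 and 8 with no filter. DESeq2 gave 6 and 7, DESeq2 on all genes 5 and 8, and limma-voom 5 and 2.

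Of 47 genes followed, 36 moved by over 1.5-fold when 1 library was left out, 12 changed sign in some setting, and the cause was not tested. Log2 fold changes that turned were 0.28 for Snap91 and 0.22 for Vps13a with library totals alone, -0.11 for Vps37a with DESeq2 size factors and -0.12 with DESeq2, and for Vps11 0.79 with limma-voom and 1.40 with the replicate block. With 1 library left out, values ranged from -2.13 to 0.63 for Stx5a, -2.35 to 3.27 for Vps11, -0.13 to 2.21 for Vps39, -2.70 to 0.46 for Snx6, -0.54 to 1.60 for Vps37a, -6.16 to 0.10 for Vps51, -0.28 to 1.93 for Vps8, -0.21 to 2.18 for Vps45, -4.67 to 0.41 for Stx2 and -0.40 to 1.17 for Vps41. Bnip3l was at 1.76 (1.12 to 3.94) and Bnip3 at -2.50 (-3.24 to -1.73). The median of all members, 0.17, ranged from -0.15 to 0.63 with 1 library left out, and was 0.88 with library totals alone and 0.64 with the replicate block, and that of the Stx17 machinery, 3.37 over 3 genes, was 0.92 with a mean CPM of at least 10 and 1.05 with no filter, which keep more of its genes. Depth limits every gene with few counts: 1 count in a WT library was worth up to 5.25 normalized CPM.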

Other observations

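Several partner genes that the rule for naming left out also had groups that did not overlap, and they were chosen here after their values were seen. Over all tested partners, named or not, DKO lay above for 3 of 9 tethers and small GTPases. It did so for 1 of 6 ESCRT, 0 of 6 retromer and 1 of 12 SNARE partners. DKO lay below for 1, 0, 0 and 2 in the same order. Among all tested genes 12.8% lay above and 6.39% below, and nothing is read from these counts. Becn1, the scaffold of the lipid kinase that starts and matures autophagosomes, had 7, 1 and 7 WT counts and 50, 51 and 56 DKO counts (edgeR adjusted p = 0.427). Chmp4b, the main filament protein of ESCRT-III, had 1, 0 and 1 against 8, 11 and 12 and was not tested. Epg5, a tether of autophagosomes and lysosomes that binds the Stx17 complex, lay the other way with 78, 39 and 552 against 51, 60 and 25, and Nsf, the ATPase that takes SNARE bundles apart, had 56, 62 and 122 against 50, 94 and 103. Sec22a, also a SNARE partner, had 3, 14 and 3 against 35, 65 and 38. Scfd2 lay the other way with 14, 29 and 48 against 21, 27 and 20. With library totals alone the groups of Epg5, Nsf and Scfd2 overlapped.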
